A study of Mus musculus with 20 samples.

Results

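Transcript levels of 9 hedgehog genes were described in mouse proximal colon organoids: the ligands Shh, Ihh and Dhh, the receptor Ptch1, the signal transducer Smo, the transcription factors Gli1, Gli2 and Gli3, and the inhibitor Hhip. They were found by the gene name attached to each array probe, and they are 9 of the 31473 genes on the array. The organoids were grown from the proximal colon of male mice aged about 40 days, heterozygous for a BrafV600E allele that Cre switches on (Braf+/LSL). EV organoids carried the empty lentiviral backbone, so the allele stayed off. BRAF organoids had received Cre by lentivirus 5 months earlier. Selected organoids were BrafV600E organoids picked for growth in base medium, which lacks the stem-cell niche factors. Wild-type organoids gave 1 array per medium and entered no test. Each type was profiled after 48 h in base medium or in the medium labelled ENSW, and the cultures were kept in Wnt3a, R-spondin and Noggin conditioned media with EGF. EV, BRAF and selected organoids had 3 numbered lines each, and each line gave 1 array per medium, which makes 18 arrays in 6 groups. Nothing in the labels says that the lines came from separate mice, so the p-values measure the spread between lines. The organoids were bulk samples, in which fewer cells of a type and less RNA per cell cannot be told apart.

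Hedgehog proteins are secreted signals. They bind Ptch1, which otherwise holds the membrane protein Smo inactive, and free Smo lets the Gli transcription factors switch on targets such as Gli1, Ptch1 and Hhip. In the gut, the epithelium makes mainly Ihh, most of it in differentiated cells near the surface, and the stroma beneath receives it. Dhh is known from Schwann cells and the testis.

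The stretches of the array probes that the results turn on are printed 5′ to 3′ as the array's design gives them. For the ligands, bases 31 to 60 of the 60-base probe are shown, with the AATAAA hexamer of polyadenylation signals in capitals. The Ihh probe lies at chr1:74991906-74991965 and the Dhh probe at chr15:98723465-98723524 (mm9, as are all probe positions here).
Ihh: atgttttggtctttcttttgtAATAAAaat
Dhh: tttgtggccaaAATAAAgattctagagtga
Smo has a pair of probes that gave opposite results, so 30 bases of each are shown, with runs of at least 3 AC dinucleotides in capitals. The brighter probe (chr6:29710919-29710978, bases 17 to 46) holds an AC run of 12 bases, and the longest in the other probe (chr6:29711225-29711284, bases 16 to 45) is 2 bases.
Smo, brighter probe: ACACACagACACACACACACatacactctc
Smo, other probe: tcatagtgccccacattcaagaaccagaca
The promoters of Ihh and Dhh are shown because these ligands moved in opposite directions. They come from RefSeq (GRCm38.p6, minus strand), and capitals mark GC boxes (GGGCGG on either strand). The Ihh stretch is chr1:74951673-74951922 and the Dhh stretch chr15:98898563-98898790.
Ihh promoter: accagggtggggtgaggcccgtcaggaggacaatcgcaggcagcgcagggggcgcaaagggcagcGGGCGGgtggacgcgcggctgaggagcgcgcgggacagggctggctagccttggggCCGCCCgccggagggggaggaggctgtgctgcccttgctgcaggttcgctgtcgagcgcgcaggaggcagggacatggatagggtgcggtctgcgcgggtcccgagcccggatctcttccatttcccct
Dhh promoter: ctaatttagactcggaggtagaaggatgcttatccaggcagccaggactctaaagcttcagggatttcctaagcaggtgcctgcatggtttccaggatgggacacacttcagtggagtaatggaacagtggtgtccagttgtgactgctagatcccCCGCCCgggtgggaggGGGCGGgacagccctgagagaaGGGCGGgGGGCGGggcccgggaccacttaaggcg
In the 250 bases before the start site, Ihh had 24 CpG dinucleotides, a GC content of 72% and 2 GC boxes. Dhh had 9 CpG, 59.6% GC and 4 GC boxes. The medians over 32851 mouse promoters were 6 CpG and 52.4% GC, and 32.7% of those promoters held a GC box. Letters of ETS (CCGGAAGT, in 2.88% of promoters), AP-1 (TGANTCA, in 6.75%) and Gli (GACCACCCA, in 0.225%) sites, searched on both strands, did not occur in this window of the 7 members with an entry (Ihh, Dhh, Ptch1, Smo, Gli2, Gli3 and Hhip).

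On each array 59.6% to 65.2% of spots were well above background by the scanner software's own call, and arrays of a group correlated across genes at r = 0.944 to 0.988. Arrays lay on 6 slides. EV organoids shared no slide with BRAF or selected organoids, so slide and type cannot be told apart in those comparisons. The 2 arrays of each culture shared a slide, and BRAF line 1 lay on the same slide as selected line 3. Of 10 epithelial markers, 10 were well above background on every array in 5 groups, and 9 were in selected organoids in ENSW medium. Of 11 mesenchymal markers, Col1a1, Pdgfra, Des, Dcn and Lum were well above background on 0 of 18 arrays, Col3a1 on 1, Pdgfrb on 5, Vim and Thy1 on 11, and Col1a2 and Acta2 on 18. Of 6 endothelial markers, Cdh5, Tek and Tie1 were above it on 0 arrays, Cldn5 on 9, and Pecam1 and Kdr on 18. The immune markers Ptprc, Cd3e, Itgam and Adgre1 passed on 18 arrays and Cd68 on 9. The part of such signal in the results was not tested.

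The colon organoids had signal for Ihh, Ptch1 and Smo, had Dhh where the BrafV600E allele was switched on, and had the response genes Gli1 and Hhip at or near background. Over the 18 arrays, Smo and Ptch1 were well above background on 18, Ihh on 17 and Dhh on 11. Shh, Gli1, Gli2 and Gli3 were above it on 0 arrays, and Hhip on 0 with 1 probe and on 1 with the other. A gene was tested where it was well above background on at least 3 arrays, which left 4 of the 9 members (Ihh, Dhh, Ptch1 and Smo) among 21423 genes. Dhh met this only through BRAF and selected arrays. Each level is a log2 value after subtracting the array's 75th percentile. Levels of different genes come from different probes and are not set against each other.

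**Figure D1:**
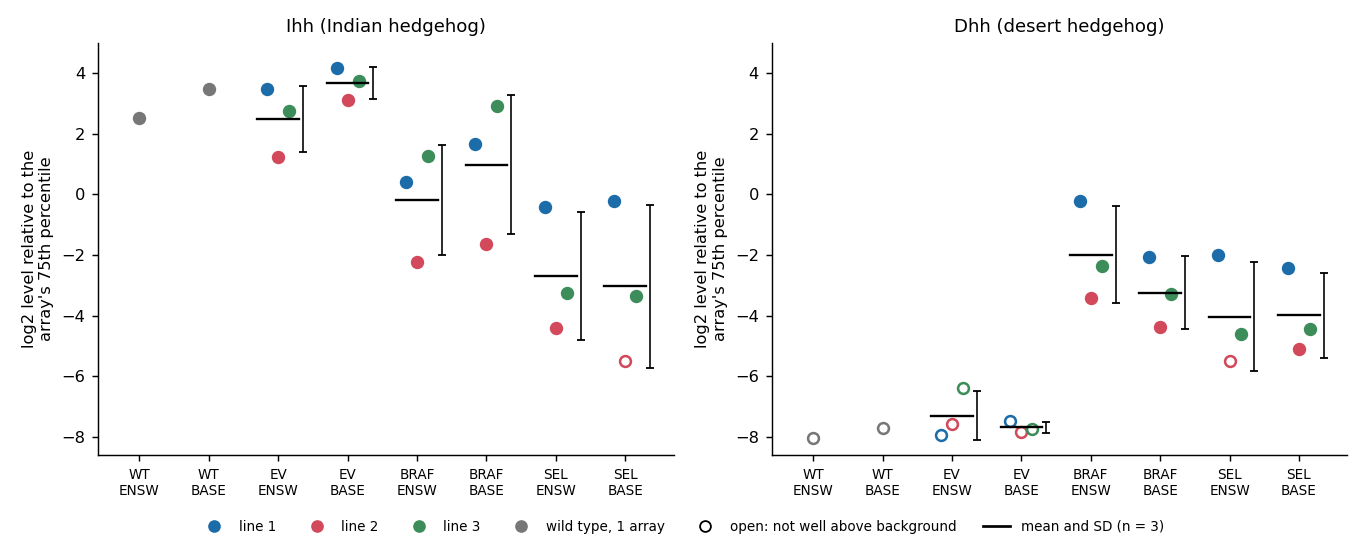
Levels of Ihh and Dhh (log2 relative to the array's 75th percentile, y axis) on every array, by organoid type and medium (x axis). Open points were not well above background, the black line and bar are the mean and SD of 3 lines, and grey points are the wild-type arrays. Ihh runs down from EV to selected organoids, and Dhh is open on all 6 EV arrays.

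In BRAF against EV organoids in ENSW medium, 1 of the 4 tested members was called (Dhh, higher), where a call means a limma adjusted p under 0.05 over all genes. Of all genes 6.28% were called, 4.86% as higher and 1.42% as lower. In base medium Dhh was again the only member called, against 31.0% of all genes (17.9% higher, 13.1% lower). Selected against EV organoids gave 2 called members in ENSW medium, Dhh higher and Ihh lower, where 13.8% of genes were called (8.71% higher, 5.14% lower). In base medium 4 of 4 were called, with Dhh and Ptch1 higher and Ihh and Smo lower. There 48.2% of genes were called, 25.0% higher and 23.2% lower, so a call in that comparison sets a member little apart. These comparisons share the EV arrays. The Smo calls depended on the probe, as described with that gene.

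Selected against BRAF organoids gave 0 called members with limma in ENSW medium (0 at an unadjusted p under 0.05, 0.607% of all genes called). In base medium it also gave 0, with 3 at an unadjusted p under 0.05, where 9.78% of genes were called (4.64% higher, 5.15% lower). Base against ENSW medium gave 1 called member in EV organoids (Smo, higher with its brighter probe and lower with the other), where 42.2% of genes were called (23.4% higher, 18.8% lower). It gave 0 in BRAF organoids (0 unadjusted, 1.68% of genes called) and 0 in selected organoids (0 unadjusted, 0.00467% of genes). The response to base medium differed between selected and EV organoids for 1 member, Smo, in opposite directions by probe, and for 24.2% of genes (13.8% higher, 10.4% lower). Between BRAF and EV organoids the response differed for 0 members (1 unadjusted) and 3.50% of genes. Between selected and BRAF organoids it differed for 0 members (0 unadjusted) and 0% of genes, although 1799 genes had an unadjusted p under 0.05. These medium fits leave out that arrays of a culture belong together. With culture as a random block, base medium moved 12511 of 21423 genes in EV, 4082 in BRAF and 3 in selected organoids. The response then differed for 9247 genes in selected minus EV, 4243 in BRAF minus EV and 335 in selected minus BRAF organoids.

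Ihh, the main hedgehog ligand of the gut epithelium, was high in EV organoids and low in selected organoids. In ENSW medium EV lines 1, 2 and 3 lay at 3.46, 1.22 and 2.75 (mean 2.48 ± 1.1, SD, n = 3). BRAF lines lay at 0.40, -2.25 and 1.27 (-0.19 ± 1.8), and selected lines at -0.42, -4.41 and -3.27 (-2.70 ± 2.1). All selected lines lay below all EV lines, and BRAF line 3 lay just above EV line 2. In base medium EV lines lay at 4.16, 3.1 and 3.74 (3.67 ± 0.54). BRAF lines lay at 1.65, -1.63 and 2.92 (0.98 ± 2.3), and selected lines at -0.23, -5.51 and -3.37 (-3.04 ± 2.7), of which line 2 was not well above background. Here neither the BRAF nor the selected lines overlapped EV. The wild-type arrays, at 2.50 in ENSW and 3.46 in base medium, fell within the range of EV lines.

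In ENSW medium Ihh was lower in selected than in EV organoids by 36.3-fold (difference -5.18 ± 1.4, SE, adjusted p = 0.0304). In base medium it was 104-fold lower (-6.70 ± 1.4, adjusted p = 0.0015). The base-medium call held without each of the 6 arrays in turn (adjusted p up to 0.00895). The ENSW call was lost without EV line 1 (adjusted p = 0.11) or line 3 (0.092), or without selected line 2 (0.111) or line 3 (0.0816), with differences of -6.32 to -4.32 over the 6 fits that left out an array. BRAF organoids did not pass against EV in ENSW medium (-2.67 ± 1.4, adjusted p = 0.298) or in base medium (-2.69 ± 1.4, adjusted p = 0.172). Without BRAF line 2, the lowest BRAF line in either medium, those differences were -1.65 and -1.38.

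Against BRAF organoids, Ihh in selected organoids differed by -2.51 in ENSW medium (adjusted p = 0.595) and by -4.01 ± 1.4 in base medium (adjusted p = 0.0945). With line number as a block, the base-medium difference kept its size with a smaller error (± 0.85) and passed (adjusted p = 0.011). It also passed without selected line 1 (-5.42, adjusted p = 0.0427). On the slide that carried selected line 3 and BRAF line 1, the differences were -3.66 in ENSW and -5.01 in base medium. With slide as a fixed block they were -3.58 (adjusted p = 0.404) and -5.09 ± 1.8 (adjusted p = 0.132). The type difference in that fit rests on the same pair, whose line numbers differ.

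Base medium did not move Ihh past the test in any type. It was higher in base medium in every EV line, by 0.70, 1.87 and 0.99 (mean 1.19, adjusted p = 0.547), and in every BRAF line, by 1.25, 0.62 and 1.65 (1.17, adjusted p = 0.718). Selected lines gave 0.19, -1.10 and -0.10 (-0.34, adjusted p = 1). The response of selected lines differed from that of EV lines by -1.52 (adjusted p = 0.648) and from that of BRAF lines by -1.51 (adjusted p = 0.92). Krt20, a keratin of differentiated surface colonocytes, had group means in ENSW and base medium of 3.12 and 7.75 in EV, 0.36 and 5.51 in BRAF, and -3.66 and -2.41 in selected organoids. Its groups thus fell in the same order as Ihh within each medium, and its part in the Ihh result was not tested.

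Dhh appeared in organoids with the switched-on allele. On the EV arrays it lay at -7.94, -7.57 and -6.38 in ENSW and at -7.47, -7.83 and -7.75 in base medium, and none of these was well above background. BRAF lines 1, 2 and 3 lay at -0.21, -3.43 and -2.35 in ENSW medium (-2.0 ± 1.6, SD, n = 3) and at -2.06, -4.39 and -3.30 in base medium (-3.25 ± 1.2). All 6 were well above background. Selected lines lay at -2.02, -5.51 and -4.60 in ENSW (-4.04 ± 1.8) and at -2.43, -5.10 and -4.44 in base medium (-3.99 ± 1.4), and only line 2 in ENSW medium was not above background. No BRAF or selected array overlapped an EV array of the same medium, and both wild-type arrays (-8.04 and -7.71) were at background.

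Dhh passed the filter only through BRAF and selected arrays, the groups where it was high. Its calls against EV are therefore no support apart from those background calls. Since EV arrays were at background, the Dhh differences are bounds. For each EV array the floor was its dimmest signal that still passed the background call, or the Dhh signal where that was higher, and the bound is the mean of the brighter group over the mean floor. In BRAF organoids Dhh was at least 14.0-fold higher than in EV in ENSW (fitted difference 5.30 ± 0.98, SE, adjusted p = 0.00701) and at least 4.74-fold higher in base medium (4.44 ± 0.98, adjusted p = 0.004). In selected organoids it was at least 3.39-fold higher in ENSW (3.25 ± 0.98, adjusted p = 0.0409) and at least 2.83-fold higher in base medium (3.69 ± 0.98, adjusted p = 0.00619). The direction held in every alternative, and the BRAF call in ENSW medium passed in all of them (adjusted p up to 0.0426 without 1 array). The fitted difference shrank to 1.70 with normexp background correction (adjusted p = 0.0227) and to 2.28 with the authors' deposited values (adjusted p = 0.0387), so the bounds hold for the main processing alone.

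The other Dhh calls were less firm. For BRAF in base medium the call was lost with normexp (0.94, adjusted p = 0.0911) and with the authors' deposited values (1.48, adjusted p = 0.0754), and for selected organoids in base medium likewise (0.59, adjusted p = 0.265, and 1.13, adjusted p = 0.138). For selected organoids in ENSW medium it was also lost with quantile normalization (3.06, adjusted p = 0.0518), without a filter (3.25, 0.0534), with a random slide block (3.04, 0.0818) and on leaving out any of 5 arrays: EV line 1 (2.93, adjusted p = 0.137), line 2 (3.12, 0.0932) or line 3 (3.71, 0.0653), or selected line 1 (2.24, 0.149) or line 3 (3.53, 0.0668).

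Among organoids with the allele, Dhh differed by line. Line 1 was the highest and line 2 the lowest in BRAF and in selected organoids and in either medium. Selected lines lay below the BRAF lines of the same number by 1.81, 2.08 and 2.25 in ENSW and by 0.38, 0.72 and 1.15 in base medium. As groups they did not pass (-2.05 ± 0.98, adjusted p = 0.482, and -0.75, adjusted p = 0.684). With slide as a fixed block the differences were -4.04 ± 1.2 (adjusted p = 0.152) and -2.74 ± 1.2 (adjusted p = 0.24). The type difference in that fit rests on the slide with selected line 3 and BRAF line 1, which differed by -4.39 and -2.38. Their line numbers differ, so line and selection cannot be told apart there. Base medium lowered no type past the test, with BRAF lines at -1.85, -0.96 and -0.95 from ENSW (mean -1.25, adjusted p = 0.526).

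Schwann and enteric glia markers were set beside Dhh, since Schwann cells are a known source. Foxd3 was well above background on 0, S100b on 2, Gfap on 3 and Sox10 on 18 of 18 arrays. The summed level of the 6 markers (log2) ran from -2.35 to -2.18 in EV and from -2.37 to -2.01 in BRAF organoids in ENSW medium, where the Dhh difference was largest. In base medium it ran from -1.82 to -1.52 in EV and from -2.26 to -1.70 in BRAF organoids. Selected organoids lay at -1.97 to -1.86 in ENSW and at -2.25 to -2.09 in base medium, so the markers were higher than in EV in 1 medium and lower in the other.

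Shh, the third ligand, had 10 spots on each array at chr5:28783983-28784042. It was well above background on 0 of 18 arrays, with levels from -8.09 to -5.10 and a median of -7.48. The highest was EV line 1 in base medium, where 4 of 10 spots passed the software's call.

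Ptch1, the receptor and a target of its own pathway, was detected on all 18 arrays with its brighter probe (chr13:63612879-63612938). In ENSW medium EV lines lay at -3.06, -2.79 and -2.92, BRAF lines at -2.91, -2.82 and -2.87, and selected lines at -2.40, -2.54 and -2.40. EV and BRAF lines overlapped, and all selected lines lay above both. In base medium EV lines lay at -4.14, -3.04 and -3.48 (-3.56 ± 0.55), BRAF lines at -2.59, -4.0 and -3.40, and selected lines at -2.47, -2.39 and -2.65 (-2.51 ± 0.13). Selected lines were again all above EV, while BRAF line 1 lay among the selected lines and BRAF lines 2 and 3 among the EV lines. The wild-type arrays lay at -2.89 and -3.91.

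In base medium Ptch1 was 2.07-fold higher in selected organoids than in EV (1.05 ± 0.30, SE, adjusted p = 0.00967). The call was lost without EV line 1 (0.76, adjusted p = 0.0546) and with normexp (0.43, adjusted p = 0.0533). In ENSW medium the difference was 0.47 (adjusted p = 0.311). BRAF organoids differed from EV by 0.05 (adjusted p = 0.945) and 0.23 (adjusted p = 0.598) in ENSW and base medium. Selected differed from BRAF organoids by 0.42 (adjusted p = 0.70) and 0.82 (adjusted p = 0.0982), and the second passed without BRAF line 1 (1.19, adjusted p = 0.0092).

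Within EV organoids Ptch1 was lower in base medium in each line, by 1.08, 0.26 and 0.57. The mean difference of -0.64 ± 0.30 did not pass (adjusted p = 0.103), and it passed with culture as a random block (± 0.23, adjusted p = 0.0301) and without the base array of line 2 (-0.89, adjusted p = 0.0326). In BRAF organoids the difference was -0.46 (adjusted p = 0.434) and in selected organoids -0.06 (adjusted p = 1).

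The dimmer Ptch1 probe (chr13:63610298-63610357) was above background on 4 of 18 arrays and on 0 of the 6 EV arrays. It lay at -6.84, -6.49 and -6.13 in EV against -5.24, -5.18 and -4.52 in BRAF and -5.06, -5.32 and -5.73 in selected organoids in ENSW medium. In each BRAF and selected group 1 of 3 arrays was above background, so most of these values lie at background and the probe passed the filter only through those groups. With this probe BRAF organoids differed from EV by 1.51 in ENSW (limma adjusted p = 0.024 over all probes) and by 1.15 in base medium (0.0224). Selected organoids differed from EV by 1.11 (0.0487) and 1.47 (0.0029). Given that filter, these calls are no support apart from the background calls, and no bound is drawn from them. On the brighter probe, BRAF and EV lines overlapped.

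**Figure D2:**
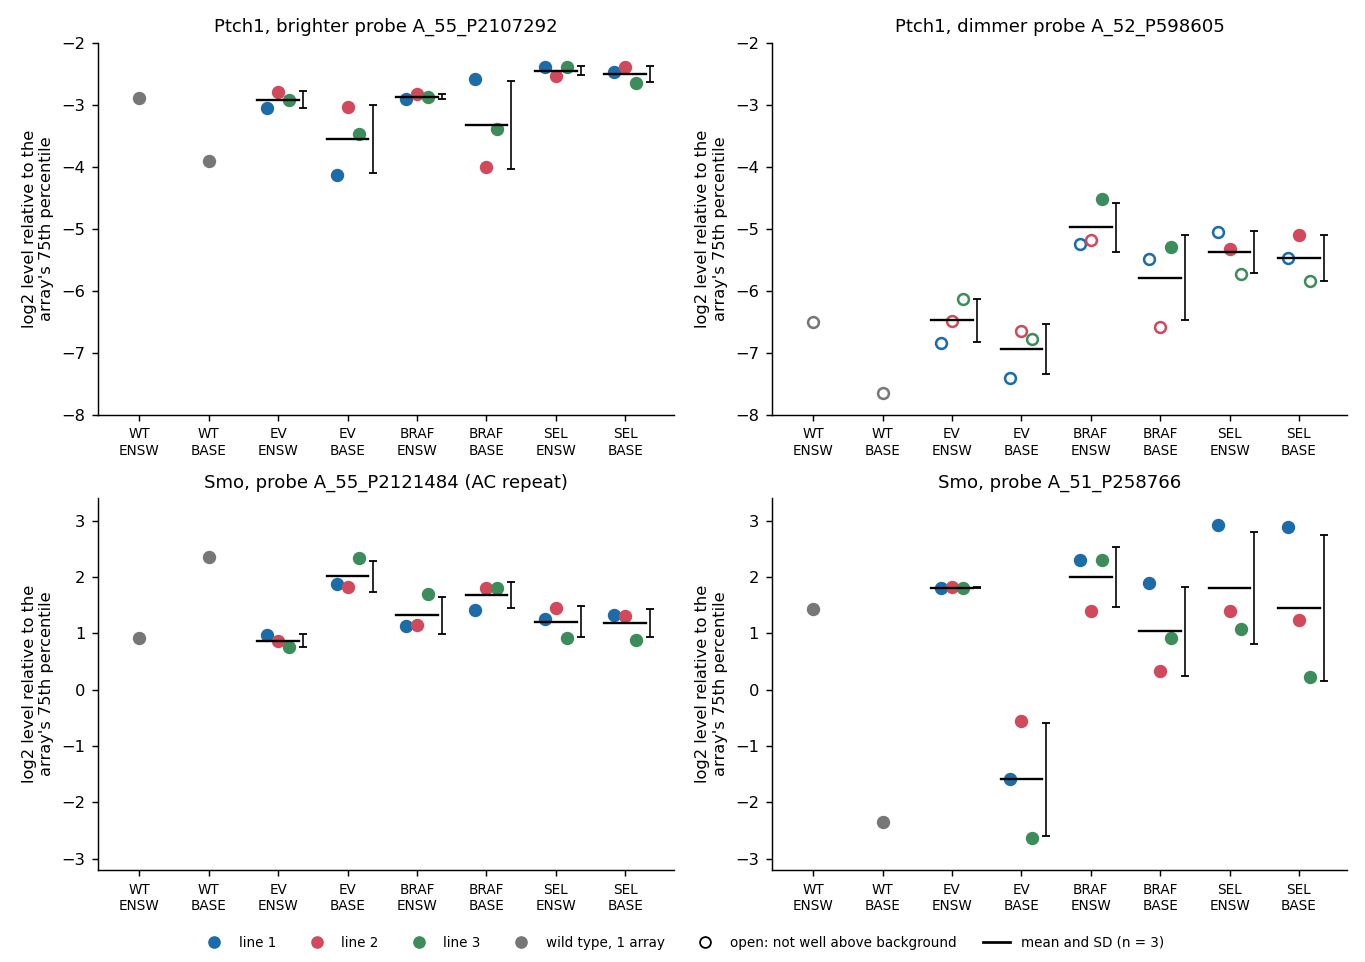
Levels of Ptch1 and Smo (log2 relative to the array's 75th percentile) on every array, with each gene's 2 probes in panels of their own. Open points were not well above background, lines and bars are means and SD of 3 lines, and grey points are wild type. In EV organoids the 2 Smo probes move in opposite directions from ENSW to base medium.

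Smo, which passes the signal into the cell, was detected on all 18 arrays with both probes, and the probes went opposite ways. With the brighter probe, EV lines lay at 0.97, 0.87 and 0.76 in ENSW and at 1.87, 1.83 and 2.34 in base medium. With the other probe the same arrays gave 1.80, 1.82 and 1.81 in ENSW and -1.58, -0.56 and -2.63 in base medium. Neither pair of groups overlapped. The wild-type arrays did the same, from 0.91 in ENSW to 2.36 in base medium with the brighter probe and from 1.43 to -2.35 with the other. The fits gave 1.15 ± 0.21 (SE, adjusted p = 0.000635) with the brighter probe and -3.40 ± 0.68 (adjusted p = 0.00113) with the other.

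In BRAF and selected organoids the medium gave no called difference with the brighter Smo probe (0.36, adjusted p = 0.38, and -0.03, adjusted p = 1). With that probe BRAF lines lay at 1.13, 1.14 and 1.70 in ENSW and at 1.42, 1.80 and 1.81 in base medium, and selected lines at 1.26, 1.45 and 0.92, then 1.33, 1.31 and 0.89. With the other probe BRAF lines lay at 2.30, 1.39 and 2.31, then 1.89, 0.33 and 0.91, and selected lines at 2.92, 1.4 and 1.08, then 2.89, 1.24 and 0.23. Selected lines kept nearly the same level in either medium with the brighter probe, and with the other probe lines 1 and 2 did while line 3 was lower.

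In base medium Smo in selected organoids was below EV with the brighter probe (-0.83 ± 0.21, adjusted p = 0.00461) and above it with the other (3.04, adjusted p = 0.00192). BRAF organoids differed from EV there by -0.33 (adjusted p = 0.248) and 2.63 (adjusted p = 0.00976). The response to the medium in selected minus EV organoids was -1.18 ± 0.30 (adjusted p = 0.0109) with the brighter probe and 3.05 ± 0.96 (adjusted p = 0.0321) with the other. In BRAF minus EV organoids it was -0.79 ± 0.30 (adjusted p = 0.152, and 0.0197 with culture as a random block) and 2.45 (adjusted p = 0.168). The direction of each called Smo difference thus depended on the probe.

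The AC repeat of the brighter Smo probe was followed through the array, a comparison chosen after these values were seen. Besides Smo, 70 tested probes held a run of at least 5 AC dinucleotides. In EV organoids 59 of them were called higher in base than in ENSW medium and 6 lower (84.3% and 8.57%, median difference 1.31), against 23.3% and 19.3% of all tested probes (median 0.18). Between selected and EV organoids in base medium 45 of the 70 were lower and 6 higher (64.3% and 8.57%, median -1.07), against 23.7% and 25.2% of all. Probes of unrelated genes with this repeat therefore moved as the brighter Smo probe did, and whether the repeat sets its signal was not tested.

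The Gli factors, which carry the signal to the nucleus, stayed below the call on every array. Gli1 (chr10:126766967-126767026), the usual readout of an active pathway, ran from -8.0 to -5.18 with a median of -7.35. Its highest group was selected organoids in ENSW medium, at -5.97, -5.81 and -5.18 or a mean of -5.65 ± 0.42 (SD, n = 3), and none of these arrays was well above background. Gli2 (chr1:120731255-120731314) ran from -8.09 to -7.18 and Gli3 (chr13:15821502-15821561), which also yields the pathway's main repressor, from -8.27 to -6.24. At this signal a difference in these genes was not detectable.

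Hhip, a decoy that binds hedgehog ligands and is a target of the pathway, had 2 probes. The probe at chr8:82490729-82490788 ran from -8.0 to -6.73 and was well above background on 0 arrays. The probe at chr8:82494280-82494339 passed on EV line 1 in ENSW medium (-4.74) and on the wild-type array in ENSW medium (-5.36). EV lines in base medium lay at -5.39, -5.99 and -6.41 with it. BRAF line 1 in base medium lay among these at -5.63, and the median over the 18 arrays was -7.32.

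**Figure D3:**
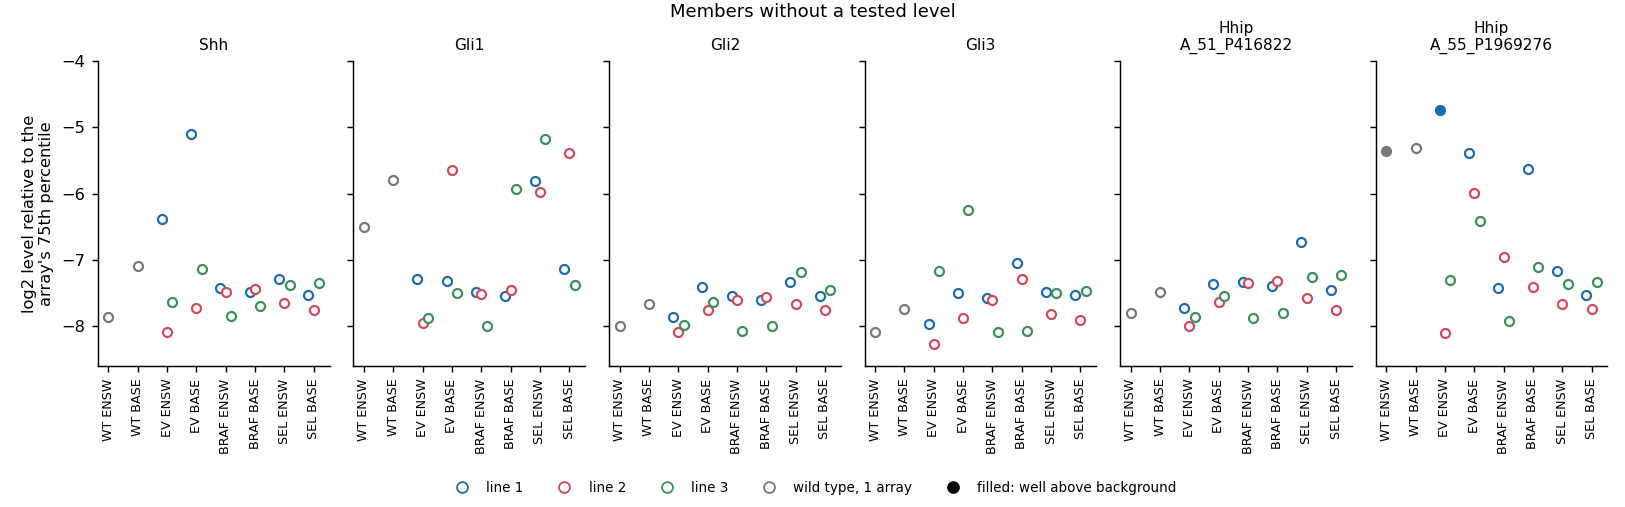
Levels of Shh, Gli1, Gli2, Gli3 and both Hhip probes (log2 relative to the array's 75th percentile) on every array, by organoid type and medium. Open points were not well above background, and among the 18 fitted arrays 1 Hhip point is filled, EV line 1 in ENSW medium.

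**Figure D4:**
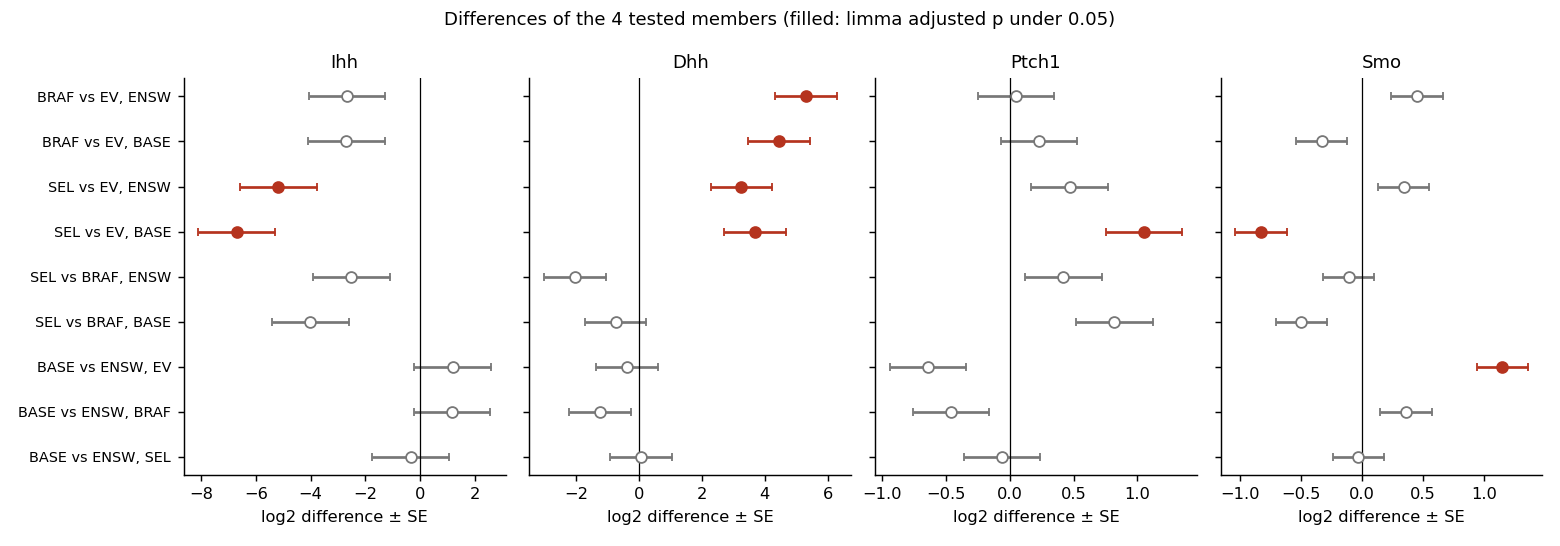
Log2 differences (point) and their SE (bar) of Ihh, Dhh, Ptch1 and Smo (brighter probe) in the 9 comparisons between pairs of groups. Filled points had a limma adjusted p under 0.05. Dhh is filled in all 4 comparisons with EV organoids and Ihh in the 2 of selected with EV. The Smo values turn direction with the other probe where they are filled.

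Other genes of the pathway were taken from 5 lists of 65 genes, of which 54 were tested. In ENSW medium BRAF organoids had 2 of them higher than EV and 0 lower (10 and 1 at an unadjusted p under 0.05), with a median difference of 0.16 against 0.06 over all genes. Selected organoids had 13 higher and 1 lower in ENSW medium (median 0.38 against 0.11), or 25.9% called against 13.8% of all genes. In base medium they had 17 higher and 7 lower (0.29 against 0.02), or 44.4% called against 48.2% of all genes. BRAF organoids in base medium had 9 higher and 5 lower (0.03 against 0.03), or 25.9% against 31.0%. In these base-medium comparisons with EV, the share of pathway genes called was below that of all genes. Against BRAF organoids, selected organoids had 5 higher and 1 lower in base medium (0.14 against -0.03), or 11.1% against 9.78%. In ENSW medium they had 0 called genes (13 unadjusted).

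**Figure D5:**
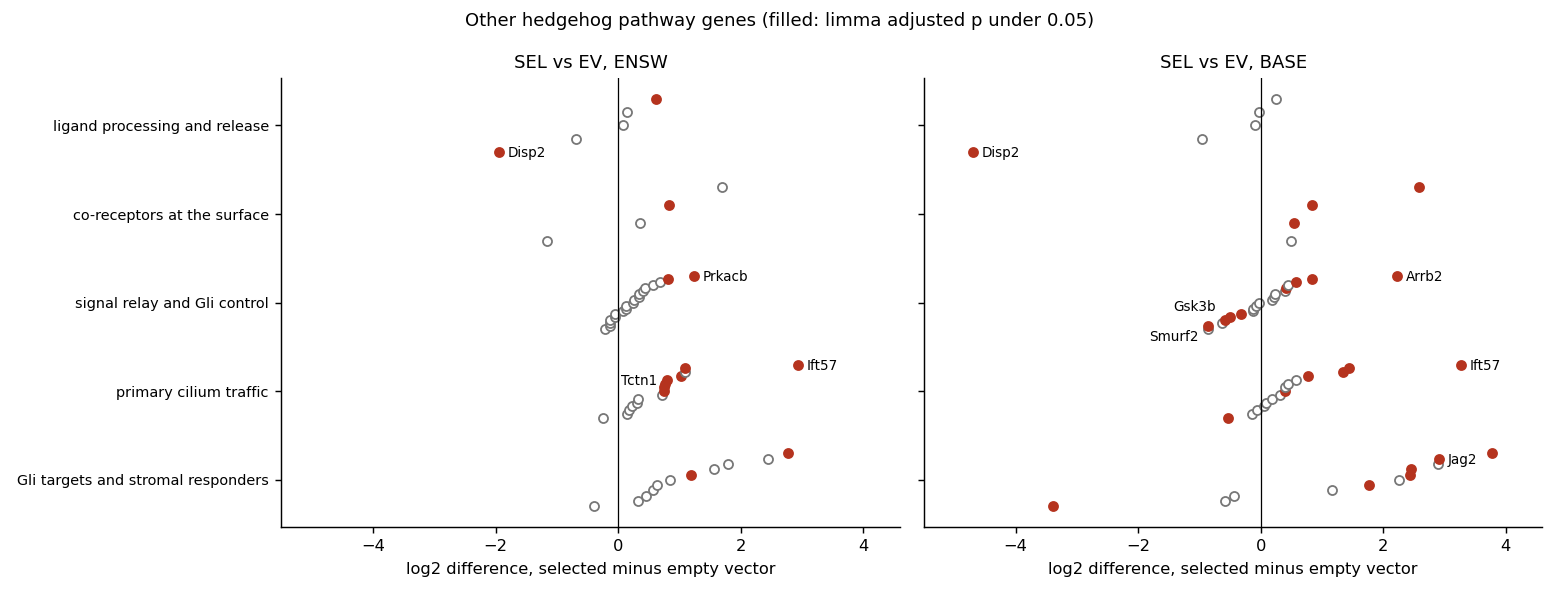
Log2 differences between selected and EV organoids of the tested pathway genes outside the 9 members (points), by list, in ENSW and base medium. Filled points had a limma adjusted p under 0.05, and some of the genes described in the text are labelled. Disp2 lies lowest in base medium at -4.70, and Ift57 is high in both media at 2.93 and 3.27.

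Among genes that process and release the ligand (9 genes, 5 tested), Disp2 fell in selected organoids. Disp2 is a relative of Disp1, the transporter that releases hedgehog proteins from the cell that makes them. In base medium EV lines lay at -2.22, -2.83 and -2.28, and the others at -4.43, -3.56 and -3.66 in BRAF and at -7.45, -6.61 and -7.39 in selected lines. The 3 types did not overlap, and no selected array was well above background. Disp2 passed the filter only through EV and BRAF arrays, the groups where it was high. Its calls in selected organoids against them are therefore no support apart from those background calls. In base medium Disp2 was at least 7.89-fold lower in selected organoids than in EV (-4.70 ± 0.48, SE, adjusted p = 4.74e-06). Against BRAF organoids it was at least 2.91-fold lower (-3.26, adjusted p = 0.0012). With normexp that difference was -0.50 (adjusted p = 0.0588), so the bounds hold for the main processing alone.

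In ENSW medium EV lines had less Disp2 (-4.32, -5.66 and -4.95), so base medium raised it in EV organoids (2.53, adjusted p = 0.000847). The response of selected organoids differed by -2.75 ± 0.68 (adjusted p = 0.00976). The ENSW difference between selected and EV organoids, at least 1.33-fold lower (-1.95 ± 0.48, adjusted p = 0.0186), was lost with normexp (-0.05, adjusted p = 0.858) and the deposited values (-0.46, adjusted p = 0.0599). It was also lost without EV line 1 (-1.62, adjusted p = 0.0877) or line 3 (-1.93, 0.061), or selected line 1 (-1.79, 0.0619) or line 3 (-1.72, 0.0664). Of the 5 tested list genes, Disp2 was the only 1 called between selected and EV organoids in base medium. That is 20% called, against 48.2% of all genes.

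Of the 4 surface co-receptors, 3 were higher and none was lower in base medium in selected organoids than in EV (median 0.69 against 0.02 over all genes), where 25.0% of all genes were higher and 23.2% lower. Cdon, a co-receptor that helps Ptch1 bind the ligand, was looked at after its values were seen and was not refitted under the alternatives. It lay at -5.33, -4.75 and -4.32 in EV, -4.2, -3.61 and -2.65 in BRAF and -1.47, -1.9 and -3.25 in selected lines. Selected lines did not overlap EV, and 2 of 3 EV arrays were well above background. The difference between selected and EV organoids was 2.59 ± 0.60 (SE, adjusted p = 0.00252).

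Genes that relay the signal or control the Gli proteins (22 genes, 19 tested) went both ways, with 2 higher and 0 lower in selected than in EV organoids in ENSW medium and 4 higher and 4 lower in base medium. In base medium that is 42.1% called, against 48.2% of all genes. Arrb2, a beta-arrestin that helps move Smo into the cilium, lay at -3.66, -2.78 and -3.59 in EV, -2.23, -2.19 and -2.21 in BRAF and -0.95, -1.14 and -1.25 in selected lines in base medium. The types did not overlap. It was higher in selected than in EV organoids by 2.23 ± 0.23 (adjusted p = 4.31e-06) and than in BRAF organoids by 1.10 (adjusted p = 0.00869). In EV organoids base medium lowered it (-1.71, adjusted p = 5.93e-05), and the response of selected organoids differed by 1.55 ± 0.32 (adjusted p = 0.00336).

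Prkacb, a catalytic subunit of the kinase that marks Gli proteins for processing, was higher in selected than in EV organoids in ENSW medium (1.23 ± 0.23, adjusted p = 0.0045). Gsk3b, another kinase acting on Gli proteins, was lower in selected organoids than in EV in base medium (-0.59, adjusted p = 0.00893), as was the ubiquitin ligase gene Smurf2 (-0.86, adjusted p = 0.00164). The Gsk3b call missed with quantile normalization (-0.43, adjusted p = 0.0559). Gpr161, a ciliary receptor that restrains the pathway, was higher in BRAF than in EV organoids in ENSW medium (0.57 ± 0.16, adjusted p = 0.0484). That call was lost in 12 alternatives, among them without each of the 6 arrays: EV line 1 (0.64), 2 (0.54) or 3 (0.54), and BRAF line 1 (0.49), 2 (0.62) or 3 (0.61), with adjusted p up to 0.153.

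Of 15 genes for traffic in the primary cilium, the organelle where vertebrate hedgehog signals are read, 7 were higher and 0 lower in selected than in EV organoids in ENSW medium (median 0.74 against 0.11 over all genes). In base medium 5 were higher and 1 lower (0.39 against 0.02), and against BRAF organoids 4 were higher and 0 lower (0.37 against -0.03). The shares called were 46.7% in ENSW medium (13.8% of all genes), 40% in base medium (48.2%) and 26.7% against BRAF organoids (9.78%). Ift57, a subunit of the intraflagellar transport complex, led them. It lay at -3.55, -2.36 and -2.42 in EV, -1.41, -2.33 and -1.27 in BRAF and 0.13, 0.25 and 0.10 in selected lines in ENSW medium, with all selected lines above the rest. The differences from EV were 2.93 ± 0.39 (adjusted p = 0.000423) and, in base medium, 3.27 ± 0.39 (adjusted p = 1.33e-05).

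Ift57 was also higher in selected than in BRAF organoids in base medium (2.12, adjusted p = 0.00464), as was another transport subunit, Ift80 (1.28 ± 0.27, adjusted p = 0.0109, and 1.04 with adjusted p = 0.0582 without BRAF line 2). Tctn1, a protein of the cilium's base, was higher in selected than in EV organoids in ENSW medium (0.79 ± 0.15, adjusted p = 0.0045). Kif3b, a motor subunit, went the other way in BRAF organoids in base medium (-0.68 ± 0.21, adjusted p = 0.0244). The Kif3b call was lost without EV line 1 (-0.58, adjusted p = 0.0906) or line 3 (-0.65, 0.0734), or BRAF line 1 (-0.67, 0.0621) or line 3 (-0.58, 0.0742).

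Of 15 known Gli targets and genes of the responding stroma, 11 were tested, and many answer to other pathways as well. In selected against EV organoids 2 were higher and 0 lower in ENSW medium (median 0.85 against 0.11) and 5 higher and 1 lower in base medium (2.25 against 0.02). These are 18.2% and 54.5% called, against 13.8% and 48.2% of all genes. Jag2, a Notch ligand, lay at -2.88, -2.07 and -3.13 in EV, -0.06, -1.07 and -0.71 in BRAF and 0.38, 0.35 and -0.08 in selected lines in base medium. EV lines lay apart from the rest, by 2.08 ± 0.35 in BRAF (adjusted p = 0.000712) and 2.91 ± 0.35 in selected organoids (adjusted p = 1.54e-05). Ccnd1, a cyclin of cell-cycle entry, lay at 1.75, 3.43 and 0.76 in EV and at 4.72, 4.18 and 4.65 in BRAF lines in base medium (2.53 ± 0.48, adjusted p = 0.00141).

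In EV organoids base medium moved some of these genes, lowering Jag2 (-1.61, adjusted p = 0.00222) and Ccnd1 (-2.44, adjusted p = 0.001) and raising the growth factor gene Bmp2 (3.83 ± 1.00, adjusted p = 0.00786). Over all 54 genes EV organoids had 10 higher and 5 lower in base medium (median 0.08 against 0.19 over all genes), or 27.8% called against 42.2% of all genes. Without culture as a block, BRAF organoids had 0 called genes with the medium (8 unadjusted) and selected organoids 0 (2 unadjusted). The summed level of the 11 mesenchymal markers (log2) ran from 1.16 to 2.82 in EV organoids in base medium and from -1.35 to 0.37 in the other groups. Thy1 carried that sum, with a mean of 2.06 in EV organoids in base medium, where the other 10 markers lay at -2.59 or lower.

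The genes whose levels followed each member most closely over the 18 arrays were taken from 14785 candidates, as a description of arrays that share types, media and slides. For Ihh they included Gm14207 (r = 0.947) and Ms4a8a (0.94). For Dhh they were Slc18a3 (0.907), Srp72 (0.893) and Adat1 (0.886), and for Ptch1 Zfp398 (0.934), Ddb2 (0.929) and Atrx (0.906). For Smo with its brighter probe they were Aff3 (0.968), Triobp (0.967) and Pdik1l (0.962).

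The probes behind the genes most like Smo held AC runs of 14 (Aff3), 8 (Triobp) and 12 (Pdik1l) bases. The probes of the genes named for the other members held runs of at most 6 bases. A further Aff3 probe, with an AC run of 2 bases, differed between base and ENSW medium in EV organoids by 0.10 (adjusted p = 0.807), where the repeat probe gave 1.28 (adjusted p = 0.000233). A further Triobp probe likewise gave 0.38 (adjusted p = 0.774), against 1.3 (adjusted p = 0.000395). Pdik1l had no further tested probe, and whether the repeat underlies the likeness was not tested.

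The genes next to the ligands, 3 on each side in RefSeq order, were looked at after the ligands' values were seen. Around Dhh, the 6 neighbours (Prkag1, Kmt2d, Rhebl1, Lmbr1l, Tuba1b and Tuba1a) differed in ENSW medium between BRAF and EV organoids by -0.27 to 0.08 and none passed (lowest adjusted p = 0.526). In base medium 3 of the 6 were called, Tuba1b higher (1.91, adjusted p = 0.000321) and Rhebl1 (-1.83, adjusted p = 0.0221) and Lmbr1l (-1.18, adjusted p = 0.00127) lower. Of all genes, 6.28% were called between these types in ENSW and 31.0% in base medium. Between selected and EV organoids in base medium, Tuba1b was higher (2.99, adjusted p = 2.76e-06) and Lmbr1l lower (-1.57, adjusted p = 4.56e-05), where 48.2% of all genes were called. Next to Ihh, Nhej1, a DNA repair gene, was lower in selected than in EV organoids in ENSW (-1.32 ± 0.25, adjusted p = 0.00515) and base medium (-1.20, adjusted p = 0.00137). Cnppd1, 3 genes away, was lower in base medium (-1.55, adjusted p = 1.85e-05). Of 5 tested neighbours of Ihh, 1 was thus called in ENSW medium (13.8% of all genes) and 2 in base medium (48.2%). Fev, Cryba2 and Slc23a3 were not called in either medium, and Cfap65 was not tested.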

How the data were processed

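RNA from 20 organoid cultures and media was hybridised to single-colour (Cy3) Agilent arrays. The deposited scanner files hold fluorescence intensity per spot, extracted with Feature Extraction 10.7.3.1 per the file headers, and the processed signal is background-subtracted. A log2 value table deposited by the authors covers the same spots; its column medians lie at 5.66 to 5.68 and its ranks follow the scanner's mean signal (rank correlation at least 0.9975). Per the submitters' processing notes, limma was used.

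Of 43020 spots other than the 1377 controls, 48 outliers were left out and 0 were saturated. The log2 signal was centred on each array's 75th percentile, spots of each of 39429 probes were averaged, and 26826 probes passed the background call on 3 or more of the 18 fitted arrays. A gene was read from its brightest such probe (21423 genes, 16085 with a symbol). Names came from the files, updated through RefSeq by accession (26581 probes), symbol (2597) or older symbol (492), and 9759 kept the file's name.

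The 6 group means were fitted in R 4.3.3 by limma 3.58.1, using lmFit and eBayes, with 12 contrasts and 12 residual degrees of freedom, and p-values were adjusted by the Benjamini-Hochberg method over all genes. Python 3.11.15, pandas 2.3.3 and matplotlib 3.10.9 made the tables and plots, and the fit was tested on simulated data. With 3 arrays per group, the number of arrays limits the precision.

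Line numbers paired the arrays between media (correlation of deviations 0.423 to 0.874) and between selected and BRAF organoids (0.163 to 0.374), and beside results the block is given only for these. Between BRAF and EV organoids the correlation ran from 0.0482 to 0.205 in ENSW and from -0.00608 to 0.211 in base medium. These ranges overlap that of selected with BRAF organoids. Between selected and EV organoids it ran from -0.0773 to 0.0878 in ENSW and from -0.0395 to 0.0563 in base medium. The lowest values with EV fell below the lowest of the paired types, so EV was not taken as paired. Its block values stand in the closing section. All 9 members were named, with up to 3 called pathway genes per direction and contrast by smallest adjusted p, and the 3 genes of highest correlation with each member detected on at least 9 arrays. The members and lists were chosen with earlier results of these data known. Alternatives were normexp background correction (offset 50), quantile normalization, the deposited values, no filter, the mean of a gene's probes, line, culture or slide as a block, and leaving out each array. Some genes that the naming rule picked are not reported here.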

Additional observations from a re-analysis of the deposited data

Results flagged for a closer look

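The response of Smo to base medium differed between selected and EV organoids in the test of that difference (-1.18, adjusted p = 0.0109, limma interaction term). The brighter probe gave this value, and the other Smo probe gave 3.05 (adjusted p = 0.0321).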

How the results depend on the processing

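Dhh, Ihh and Ptch1 kept their direction in every alternative where they were called, and Smo did not. With the mean of its probes Smo reversed for BRAF against EV in base medium (1.15), selected against EV in base medium (1.10), base against ENSW medium in EV (-1.13) and the response of selected minus EV (0.94, no longer past the test). With the other probe alone, an alternative added after the data were seen, these were 2.63, 3.04, -3.40 and 3.05. Over the named genes, 1204 alternative values kept direction and call, 100 lost the call, 10 gained it and 8 reversed.

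The count of members called for BRAF against EV in base medium (1) was 0 with normexp and with the deposited values, 2 with the mean of probes, and 2 with the replicate block on line number, where Ihh passed (adjusted p = 0.0277). For selected against EV in ENSW medium (2) it was 1 with normexp, quantile normalization, the deposited values or slide as a random block, and 0 to 1 without each array in turn. For selected against EV in base medium (4) it was 2 with normexp, 3 with the deposited values, and 3 to 4 without each array. For selected against BRAF in base medium (0) it was 1 with the replicate block and 0 to 1 without each array. Base against ENSW medium in EV (1) gave 2 with culture as a block and 1 to 2 without each array. The response of BRAF minus EV (0) gave 1 with culture as a block, and that of selected minus EV (1) gave 0 with the mean of probes. Slide as a fixed block for selected against BRAF was also added after the data were seen. The median of all genes lay above 0 by 0.11 for selected against EV in ENSW medium and by 0.19 for base against ENSW medium in EV, and at -0.19 for the response of selected minus EV. Signal over background limits Shh, Gli1, Gli2, Gli3 and Hhip, which have no test.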
